A study of Pleurotus ostreatus with 53 samples.

Results

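Copia_5 is a family of retrotransposon copies in the oyster mushroom Pleurotus ostreatus, and its members here were the transposable element (TE) copies that carry exactly this name in the deposited tables. It had 8 copies among the 1051 TE copies listed, which fell into 79 families, and 137 further copies belonged to other Copia families. The family was chosen by measured values, namely its mRNA totals in HyB, PC9 and PC15 and the small RNA of its long copy on scaffold 7. Those levels, and any comparison that uses the mRNA of HyB, PC9 or PC15, are therefore given as a description with no p-value, and nothing is supported with them.

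Copia elements are long terminal repeat (LTR) retrotransposons. They are transcribed from 1 LTR into an RNA that encodes the proteins needed to copy it back into DNA and insert that DNA elsewhere in the genome. In many fungi such elements are held down by methylation of cytosines in CG sites and by small RNAs, which are cut from double-stranded RNA and can guide the breakdown of matching transcripts. mRNA, small RNA and CG methylation of the same copies were measured here.

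Tissue of 3 N001 sample types was profiled, namely mycelium, primordium (the first visible stage of the mushroom) and fruitbody of the dikaryon N001, whose cells carry a pair of different nuclei. HyB, labelled N001_HyB, was mycelium of the dikaryon that came from crossing PC9 and PC15, and PC9 and PC15 were mycelium of monokaryons, whose cells carry 1 kind of nucleus. Each of these 6 groups had 3 libraries per assay, described by the submitters as biological replicates, except that primordium had 2 bisulfite libraries here, which gave 53 libraries in all. No mutation or treatment was given in the labels, and the genes are known by number only, so no marker gene of a tissue was checked.

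The mRNA libraries held 19628882 to 30123572 reads and the small RNA libraries 191411 to 5746479 reads in genes and TE copies. Levels are given as RPM, reads per 1000000 reads of these totals, and levels of copies of unequal length are set side by side only per kb. In mRNA, TE copies took 0.109% to 0.347% of reads in all libraries but those of PC15, where they took 1.36% to 1.54%. In small RNA, TE copies took 32.3% of reads in PC9 replicate 1, although the lowest share in another PC9 library was 6.93%, so this library stood apart. The share was 29.6% to 30.8% in N001 mycelium, 31.3% to 39.6% in primordium and 35.0% to 39.8% in fruitbody. It was 56.9% to 69.1% in HyB and 66.8% to 68.8% in PC15, so the make-up of the small RNA totals differed between groups. In mRNA, replicate 1 had the highest Copia_5 total in 5 of the 6 groups, all but PC15, and in HyB the highest library was 8.30 times the lowest. Many values that rest on the first replicate of HyB or PC9 are therefore also given without it, and the rest include it. Methylation levels were given without coverage, so their depth is unknown and no interval is printed.

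Of the 8 copies, 3 were at least 6 kb long. The long copy on scaffold 7 (153231 to 159810) spanned 6580 bp and the long copy on scaffold 8 (318983 to 325584) spanned 6602 bp. The third, on scaffold 1 (970457 to 976463), spanned 6007 bp and ended at the base before a Gypsy_1 element of 6679 bp (976464 to 983142). On the far side of that element, 1 base further on, lay a Copia_5 stretch of 601 bp (983144 to 983744). These are called the left and right piece of the scaffold 1 locus. The other 4 copies were fragments of 82 bp on scaffold 6 (607047 to 607128), 341 bp on scaffold 7 (587827 to 588167), 175 bp on scaffold 8 (1116989 to 1117163) and 150 bp on scaffold 9 (912175 to 912324). The last 2 overlapped a Gypsy_7 and a Gypsy_43 copy. The build behind these positions, the counting program, its strand setting and its handling of reads with several matches are not given in the sources used here. Reads that fit more than 1 copy can therefore not be told apart, and neither can sense and antisense reads.

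Copia_5 was the most abundant TE family in the mRNA of PC15, and its level in every other group was low. The summed mRNA level of the 8 copies in N001 was 1.23, 0.307 and 0.531 RPM in mycelium, 0.611, 0.127 and 0.341 RPM in primordium and 1.16, 0.269 and 0.366 RPM in fruitbody. It was 20.3, 4.08 and 2.45 RPM in HyB, 0.849, 0.286 and 0.447 RPM in PC9, and 2773, 2607 and 3440.3 RPM in PC15. No library of another group came near the PC15 libraries, HyB replicate 1 was next, and the N001 and PC9 libraries overlapped one another. Copia_5 held a mean of 0.265% of all TE mRNA in HyB (0.605%, 0.117% and 0.0719% by library), 0.05003% or less in N001 and PC9, and 20.1% in PC15. By mean level it ranked 43, 52 and 46 of 79 families in N001 mycelium, primordium and fruitbody, 37 in HyB, 46 in PC9 and 1 in PC15.

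4 of the 8 copies carried nearly all of these reads, with 726 to 80778 reads each over the 18 libraries, and the other 4 had 14 or fewer. The long copy on scaffold 8 had 8.67, 2.19 and 1.20 RPM of mRNA in HyB, 0.485, 0.286 and 0.447 RPM in PC9, and 962, 1032 and 1263 RPM in PC15. The long copy on scaffold 7 had 7.93, 1.12 and 1.06 RPM in HyB, 0.323, 0 and 0 RPM in PC9, and 886, 732 and 963 RPM in PC15. The right piece on scaffold 1 had 3.63, 0.662 and 0.192 RPM in HyB, 0.0404, 0 and 0 RPM in PC9, and 920.2, 833 and 1200.4 RPM in PC15. In all 3 copies the PC15 libraries lay above every HyB library and the HyB libraries above every PC9 library. The left piece was much weaker, with 0.105, 0.102 and 0 RPM in HyB, no read in PC9, and 5.18, 10.9 and 13.5 RPM in PC15.

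**Figure D1:**
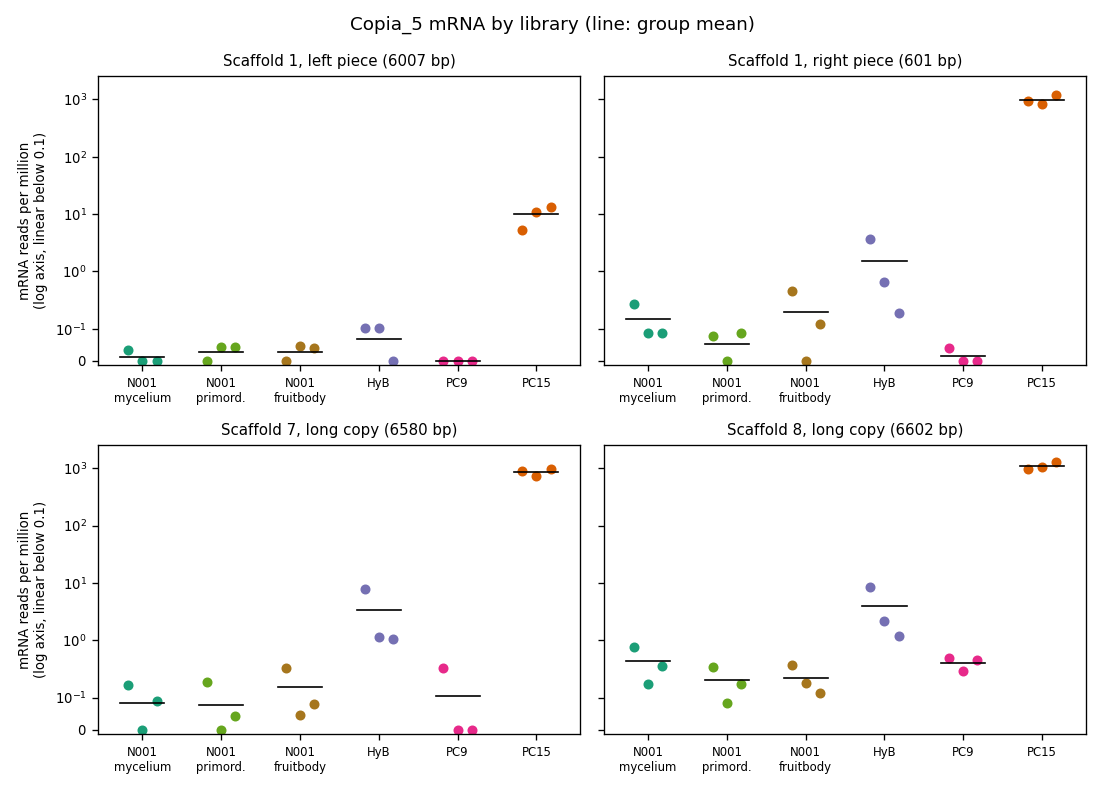
mRNA level in RPM of 4 Copia_5 copies (y axis, logarithmic above 0.1 and linear below) in each library (points) of the 6 groups (x axis), with group means as lines. In PC15 the right piece and the long copies of scaffolds 7 and 8 sit between 732 and 1263 RPM, and no library of another group exceeds 8.67 RPM.

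Between the monokaryons, the mean mRNA level in PC9 was 7984-fold lower than in PC15 at the scaffold 7 long copy and 2673-fold lower at the scaffold 8 long copy. All 8 PC9 reads at the scaffold 7 long copy were in replicate 1, and without that library PC9 had no read there and was at least 13453-fold lower, while the scaffold 8 value was 2961-fold. The right piece had 1 read in all PC9 libraries and 73087 in PC15, a ratio of 70249 with a 95% interval, for counting error only, of 12608 to 2774714. That read was in PC9 replicate 1, and without this library the right piece was at least 15319.9-fold lower in PC9. The right piece also had no methylation value in PC9, and whether PC9 carries it was not tested. With no read, the left piece was at least 229-fold lower in PC9 than in PC15, taking 3 reads over the group as the limit of detection (at least 150.1-fold without PC9 replicate 1). Every PC9 library lay below every PC15 library at 5 of the 6 copies with a read in either group, where 66% of 884 TE copies did so, and the fragment of 82 bp, with 1 read in PC15, overlapped. N001 mycelium likewise lay below PC15 in every library at 5 copies (66% of 886). These contrasts are part of what chose the family, so nothing is read from the counts.

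In HyB, which received nuclei of both strains, the mRNA of the family was far from the mean of the monokaryons. The mean total in HyB was 8.95 ± 9.89 RPM (SD, n = 3), against 0.527 ± 0.290 RPM in PC9 and 2940.2 ± 441 RPM in PC15. The mean of the PC9 and PC15 levels was 1470.4 RPM, 164 times the HyB level. The total over all TE copies, Copia_5 included, was also nearer to PC9 in HyB. It averaged 3412 RPM in HyB, 2300 RPM in PC9 and 14642 RPM in PC15. By copy, the mean level in HyB was 658-fold lower than in PC15 at the right piece, 270.1-fold lower at the scaffold 8 long copy, 255-fold lower at the scaffold 7 long copy and 143-fold lower at the left piece. HyB replicate 1 decided much of the HyB mean: without it the family total was 3.26 RPM (n = 2), which was 901-fold below PC15, and the same 4 copies in that order were 2305-fold, 640.2-fold, 790.3-fold and 193-fold below it. The 2 libraries left were unusually close in gene mRNA. Their chi-square per degree of freedom was 3.77, against 504 and 515 for each with replicate 1.

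HyB libraries lay below all PC15 libraries at 5 of 6 copies with reads (55.9% of 896 TE copies did), and above all PC9 libraries at 3 of 4 (30.9% of 715). The scaffold 7 long copy had a mean 31.3 times higher in HyB than in PC9 and the scaffold 8 long copy 9.90 times higher, with PC9 at 8 and 29 reads in all. Both rested on HyB replicate 1, without which they were 10.1 and 4.18 times higher. Without PC9 replicate 1 instead, PC9 had no read at the scaffold 7 long copy, so that HyB was at least 61.2 times higher, and the scaffold 8 value was 10.96 times. Whether fewer nuclei or cells that transcribe the family, or less RNA from each, lie behind such a difference cannot be told apart in bulk RNA.

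TE copies within 1 kb of a Copia_5 copy numbered 13, of which 11 had a read in HyB or PC15. HyB lay below PC15 in every library at 7 of the 11, near the 55.9% of all TE copies given above. Examples are Gypsy_6 beside the fragment of 175 bp, with means of 2.16 RPM in HyB and 27.8 RPM in PC15, and Gypsy_35 beside the scaffold 7 long copy, with 0.288 RPM in HyB and 3.45 RPM in PC15; the neighbours named here were chosen after their values were seen. At the other 4 the groups overlapped, and 1 of these was well transcribed. This was Copia_7, a Copia family copy of 5048 bp that starts 392 bp after the end of the scaffold 8 long copy, and it had 82.3 ± 16.4 RPM of mRNA in HyB and 79.6 ± 15.4 RPM in PC15 (SD, n = 3 each). It had 3.32 ± 1.39 RPM in N001 mycelium and 0.138 ± 0.0423 RPM in PC9. The Copia_5 copy beside it had 4.02 ± 4.05 RPM in HyB and 1085 ± 157 RPM in PC15. So the HyB and PC15 ranges overlapped at Copia_7 (63.4 to 91.9 and 63.1 to 93.6 RPM) and did not overlap at Copia_5.

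Within the scaffold 1 locus, mRNA was uneven along the DNA. Per kb, the mean level in HyB was 0.0115 RPM in the left piece, 0.288 RPM in the Gypsy_1 element and 2.49 RPM in the right piece, or 0.00848, 0.0550 and 0.711 RPM without HyB replicate 1. In PC15 the same stretches had 1.64, 135 and 1638 RPM per kb, in the same order. The long copies of scaffolds 7 and 8 had 131 and 164 RPM per kb in PC15, close to the Gypsy_1 element between the pieces. The right piece thus had the highest level per kb of the 8 copies in both HyB and PC15, although it is far shorter than a long copy. That reads shared with the ends of the other copies were counted there was not tested.

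**Figure D2:**
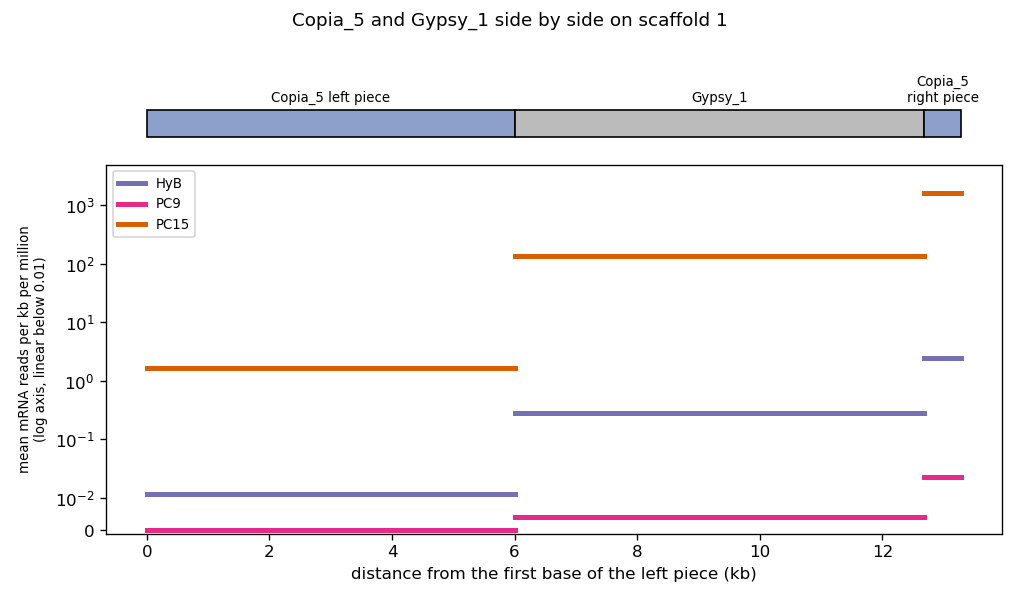
Scaffold 1 locus drawn to scale, with the left Copia_5 piece, Gypsy_1 and the right Copia_5 piece (top) and the mean mRNA level of each in RPM per kb (y axis, logarithmic above 0.01 and linear below) against distance in kb for HyB, PC9 and PC15. In PC15 the level steps up from piece to piece, at 1.64, 135 and 1638 RPM per kb, and HyB lies below PC15 in all 3 stretches.

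Between the dikaryon mycelia, the mean mRNA levels of the 4 transcribed Copia_5 copies in N001 were below those in HyB. The right piece had 0.266, 0.0876 and 0.0884 RPM in N001 mycelium against 3.63, 0.662 and 0.192 RPM in HyB, a fitted log2 fold change of -3.27, with N001 replicate 1 above the lowest HyB library. The scaffold 7 long copy had 0.166, 0 and 0.0884 RPM in N001 mycelium against 7.93, 1.12 and 1.06 RPM in HyB, a fitted log2 fold change of -5.16. The scaffold 8 long copy had 0.764, 0.175 and 0.354 RPM in N001 mycelium against 8.67, 2.19 and 1.20 RPM in HyB, a fitted log2 fold change of -3.18. In both long copies every N001 library lay below every HyB library, so that 2 of the 5 copies with a read in either group did so, where 27.6% of 704 TE copies did. The left piece had 1 read in N001 mycelium and 5 in HyB. HyB mRNA helped to choose the family, so nothing is read from these values. Without HyB replicate 1 the fitted changes were -1.42 at the right piece, -3.51 at the scaffold 7 long copy and -1.92 at the scaffold 8 long copy. Without N001 mycelium replicate 1 they were -4.04, -6.11 and -3.91.

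Change of Copia_5 mRNA during development of N001 could not be judged at this depth, since with only the compared stages in the fit no copy had enough reads to test. In the fit over all 6 groups, which 4 copies entered through reads in other groups, 0 passed by edgeR in primordium against mycelium (2.8% of 428 TE copies did) and in fruitbody against primordium (0%). Of these 4 copies, 0 had an unadjusted p under 0.05 and 0 were called by DESeq2 in either comparison, and nothing is read from these counts. The scaffold 8 long copy, the most abundant in N001, had 0.764, 0.175 and 0.354 RPM in mycelium, 0.344, 0.0846 and 0.171 RPM in primordium and 0.373, 0.179 and 0.122 RPM in fruitbody. The reads behind them were 35 in mycelium, 15 in primordium and 16 in fruitbody, over 3 libraries each.

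Small RNA of the family was also highest in PC15, and there it came from the long copies. The summed level in N001 averaged 184 ± 27.3 RPM in mycelium, 277 ± 7.65 RPM in primordium and 248 ± 69.8 RPM in fruitbody (SD, n = 3 each). It was 981, 383 and 419 RPM in HyB, 1421, 536 and 526 RPM in PC9, and 42890.0, 60352 and 85328 RPM in PC15. PC15 lay far above all other libraries, and HyB and PC9 overlapped. Copia_5 ranked 40, 37 and 40 of 79 families by mean small RNA in N001 mycelium, primordium and fruitbody, 34 in HyB and 20 in PC9. In PC15 it ranked 3 and held 9.24% of all TE small RNA.

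The scaffold 8 long copy had 711, 284 and 315 RPM of small RNA in HyB, 719.7, 319.9 and 255 RPM in PC9, and 30417, 34923 and 41380.1 RPM in PC15. The scaffold 7 long copy had 212, 77.5 and 78.3 RPM in HyB, 282, 70.6 and 114 RPM in PC9, and 10577, 24207 and 41489.8 RPM in PC15. HyB and PC9 overlapped at both. These long copies together held 96.9% of the family's small RNA in PC15, and 66.3% of its mRNA. The right piece held a smaller part of the small RNA than of the mRNA in PC15, 3.03% and 33.3%. It had 3 small RNA reads in all in HyB and 4 in PC9, against 1860.4, 1181 and 2394 RPM in PC15.

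The left piece went the other way. Its small RNA was 406, 143 and 157 RPM in PC9 and 34.1, 37.5 and 61.5 RPM in PC15, so that each PC9 library lay above each PC15 library and the mean was 5.31-fold higher in PC9. Without PC9 replicate 1, whose TE share stood apart, the PC9 mean was 150 RPM (n = 2), 3.39-fold higher than in PC15. HyB had 52.9, 19.4 and 18.9 RPM at this piece, which overlapped PC15 and lay below all PC9 libraries. Over the 7 copies with small RNA in PC9 or PC15, 1 was higher in every PC9 library (10.2% of 958 TE copies were) and 3 lower (29%). HyB was lower than PC15 in every library at 3 of 7 copies (10.1% of 969) and lower than PC9 at 1, the left piece (3.02% of 959). N001 mycelium was lower than PC15 in every library at 5 of 7 copies (22.9% of 952) and higher at the fragments on scaffolds 6 and 9 (23.9%). Against PC9 it was lower at the 3 longest copies (2.33% of 944) and higher at the fragment on scaffold 6 (22.6%). Among the 5 copies lower than PC15 was the fragment of 341 bp, which rested on 4 reads in PC15 and 0 in N001 mycelium. The scaffold 7 long copy, whose small RNA helped to choose the family, is among the 7 copies, so nothing is read from these counts.

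**Figure D3:**
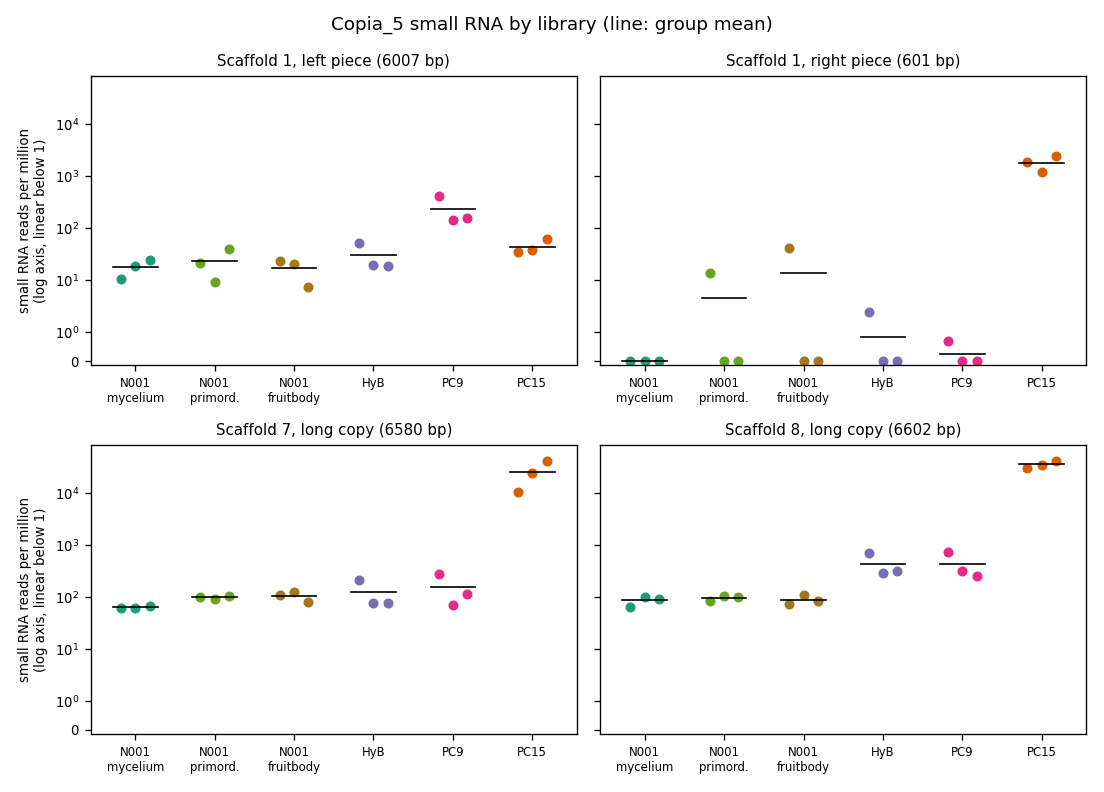
Small RNA level in RPM of 4 Copia_5 copies (y axis, logarithmic above 1 and linear below) in each library (points) of the 6 groups (x axis), with group means as lines. The long copies of scaffolds 7 and 8 are at 719.7 RPM or less in all other groups and at 10577 RPM or more in PC15, and the left piece has its highest values, 143 to 406 RPM, in PC9.

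In the tested comparison of N001 mycelium with HyB, small RNA was called at 1 of 5 copies (3 of which had enough reads with only these groups in the fit), where 14.8% of 633 TE copies were lower and 1.11% higher. The scaffold 8 long copy had 65.1, 102 and 92.6 RPM in N001 mycelium against 711, 284 and 315 RPM in HyB, with a log2 fold change of -2.33 (SE 0.68, adjusted p = 0.0261 by edgeR). The groups did not overlap, but the call was lost when HyB replicate 1 (-1.79, adjusted p = 0.0856) or N001 mycelium replicate 1, 2 or 3 (adjusted p of 0.0977, 0.0969 and 0.112) was left out, and with scaling inside the TE table (-1.43, adjusted p = 0.0760). The scaffold 7 long copy, whose small RNA helped to choose the family, was 1 of the 5 and is given as a description only. Of 58 copies of other Copia families, 1 was lower and 1 higher. In both developmental comparisons 0 of 5 copies passed by edgeR (0% of 633 TE copies) and 0 by DESeq2. At an unadjusted p under 0.05 there was 1 in primordium against mycelium, the right piece, and 0 in fruitbody against primordium. The primordium and fruitbody reads of the right piece, 7 and 51, were each in 1 library. It had 0 in N001 mycelium and 4649 in PC15, which was in the same fit. Its change between stages could therefore not be judged, and nothing is read from its results.

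The fragment of 82 bp on scaffold 6 was the only copy whose small RNA was higher in every N001 mycelium library than in every library of HyB, PC9 and PC15, as was 3.88% of 1005 TE copies. It had 15.1, 11.9 and 14.8 RPM in N001 mycelium, 45.2, 34.1 and 42.1 RPM in primordium and 34.6, 5.22 and 0 RPM in fruitbody. It had 0.827, 2.58 and 6.30 RPM in HyB, 2.61, 0 and 0 RPM in PC9 and 0.759, 0 and 1.66 RPM in PC15. In the fit over all 6 groups the difference of N001 mycelium from HyB did not pass (log2 fold change 2.07, SE 1.34, edgeR adjusted p = 0.305). The reads behind it were 30 in N001 mycelium and 10 in HyB. With only these groups in the fit the fragment had too few reads to test. It entered through reads in other groups, so nothing is read from that result.

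CG methylation was measured at 6 copies, and at the 3 longest of them in PC9, where 719 TE copies had a value against 972 to 978 in the other groups. The fragments on scaffolds 6 and 9 had none. Whether PC9 carries the copies that had a value only in the other groups, the right piece among them, was not tested. The scaffold 7 long copy stood at 65.2%, 60.7% and 64.3% in N001 mycelium, 26.3%, 29.8% and 27.6% in HyB, 72.3%, 72.6% and 71.8% in PC9 and 20.2%, 22.97% and 21.99% in PC15. The left piece stood at 57.0%, 53.3% and 56.2% in N001 mycelium, 28.1%, 30.8% and 29.4% in HyB, 70.9%, 69.8% and 73.2% in PC9 and 26.7%, 29.2% and 28.3% in PC15. In both, PC9 was highest, N001 next, and HyB and PC15 were far lower. PC9 lay above PC15 in every library at 2 of the 3 copies with values (80% of 716 TE copies), and N001 mycelium lay below PC9 at the same 2 (31.6% of 719); at the third, the PC9 libraries include a value of 0.

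The scaffold 8 long copy stood at 68.7%, 66.9% and 69.7% in N001 mycelium, 34.2%, 36.0% and 32.9% in HyB and 28.6%, 31.1% and 31.3% in PC15. In PC9 it was 73.05% and 71.2% in replicates 1 and 2 and listed at 0 in replicate 3. Such a listing, at 0 where the group's other libraries were over 50%, was found for 2 of 719 copies in that library, 1 in PC9 replicate 2 and 0 in all other libraries. Whether it is a missing estimate was not tested, and the level of this copy in PC9 is given over its other libraries only.

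In HyB the long copies were near the PC15 level rather than midway between the monokaryons. HyB was nearer to PC15 over all TE copies too. Their means, over the copies with a value in each group, were 28.1% in HyB, 49.3% in PC9 and 22.9% in PC15. The left piece averaged 29.4% in HyB, where the mean of PC9 and PC15 was 49.7%, the scaffold 7 long copy averaged 27.9% with a mean of both of 47.0%, and the scaffold 8 long copy averaged 34.4% with 51.2%, leaving out the value of 0. The mRNA levels of these copies in HyB were nearer to PC9, as given above. Against PC15, HyB was higher in every library at 3 of 6 copies (48.7% of 967 TE copies) and lower at 1 (15.4%), which was the fragment of 341 bp on scaffold 7 with 23.4%, 21.5% and 20.9% in HyB against 37.6%, 35.6% and 40.3% in PC15.

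The right piece, which had the most mRNA per kb in PC15, had 14.2%, 10% and 8.68% methylation in HyB, against 3.61%, 2.19% and 5.04% in PC15. In PC15 this was the lowest level of the 4 transcribed copies, with means of 21.7% at the scaffold 7 long copy, 28.1% at the left piece and 30.3% at the scaffold 8 long copy. Across these copies methylation and mRNA per kb did not run in 1 order, since the scaffold 8 long copy had the highest methylation of the 4 and the second highest mRNA per kb. The fragment of 175 bp on scaffold 8, which shares 1 base with a Gypsy_7 copy, was at 4.5% or less in every library with a value (none in PC9) and had 1 mRNA read in all.

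**Figure D4:**
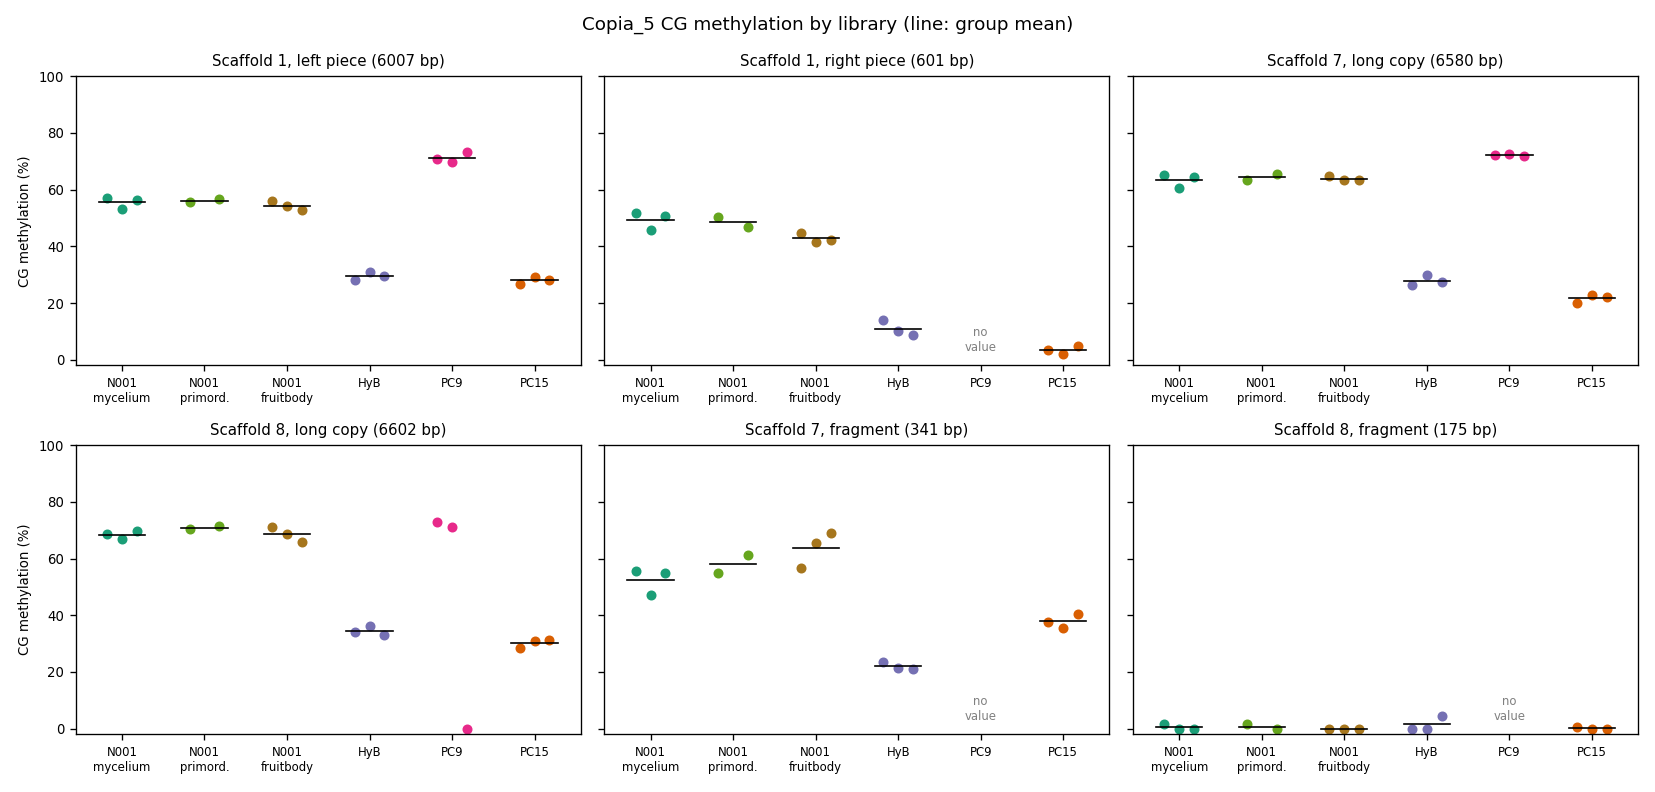
CG methylation in percent (y axis) of the 6 Copia_5 copies with a value, in each library (points) of the 6 groups (x axis), with group means as lines (none for PC9 at the scaffold 8 long copy, where 1 library is listed at 0). All copies but the fragment of 175 bp on scaffold 8 lie higher in N001 mycelium than in HyB and PC15.

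Tested with limma on percentage points, 5 of the 6 copies were more methylated in N001 mycelium than in HyB, where 74.8% of 960 TE copies were higher and 3.75% lower. The right piece averaged 49.4% ± 3.21 in N001 mycelium and 10.96% ± 2.88 in HyB, a difference of 38.4 points (SE 1.97, limma adjusted p = 3.98e-09). The scaffold 7 long copy differed by 35.5 points, the scaffold 8 long copy by 34.1, the fragment of 341 bp by 30.6 and the left piece by 26.1 points (limma adjusted p of 2.82e-06 or smaller). The fragment of 175 bp did not pass (-1 points, limma adjusted p = 0.388). The median difference was 32.3 points over the 6 copies, 16.4 over 123 copies of other Copia families (94 higher and 5 lower) and 20.9 over all TE copies.

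N001 mycelium was likewise higher than PC15 at 5 of 6 copies (79.8% of 960 TE copies were higher and 2.5% lower). The differences were 45.8 points at the right piece (SE 1.97, limma adjusted p = 6.29e-10), 41.7 at the scaffold 7 long copy, 38.1 at the scaffold 8 long copy, 27.5 at the left piece and 14.8 at the fragment of 341 bp (limma adjusted p = 0.00115 or smaller). The median was 32.8 points over the 6 copies, 22.9 over the other Copia copies (98 higher and 1 lower) and 28.5 over all TE copies. This comparison and the one with HyB share the N001 mycelium libraries.

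Between the stages of N001, methylation of the 6 copies was not called in either direction. In primordium against mycelium 0 passed by limma (0.104% of 960 TE copies did) and 0 had an unadjusted p under 0.05. In fruitbody against primordium 0 passed (0.104%), and 1 had an unadjusted p under 0.05, the right piece, with 44.7%, 41.5% and 42.4% in fruitbody against 50.4% and 47.0% in primordium. That difference was -5.83 points (SE 2.20, limma adjusted p = 1).

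4 of the 8 copies lay within 1 kb of a gene, all of them short. Gene 1060521 lay 208 bp from the right piece and had 47.6 ± 6.55 RPKM in HyB, 86.0 ± 32.6 RPKM in PC9 and 84.7 ± 19.4 RPKM in PC15 (SD, n = 3 each), so that it did not follow the mRNA of the piece. Its methylation was 0.305% or less in every group mean. Gene 1097443, 765 bp from the fragment of 341 bp, had 5.92 ± 0.341 RPKM in HyB, 7.73 ± 0.706 RPKM in PC9 and 17.2 ± 4.41 RPKM in PC15. The genes nearest to the fragments of 82 bp and 175 bp, 1057036 and 1094348, averaged 56.1 and 89.2 RPKM in PC9 against 56.2 and 92.5 RPKM in PC15. The genes nearest to the long copies were 1720 bp (scaffold 7), 2294 bp (scaffold 8) and 7489 bp (left piece) away.

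The 5 families whose mRNA ran most like that of Copia_5 over the 18 mRNA libraries, by Spearman rho on family totals among 71 families, were Gypsy_11 (rho 0.893), Gypsy_28 (0.876), Copia_3 (0.851), Gypsy_37 (0.837) and Copia_10 (0.825). Gypsy_28 averaged 19.2 RPM in HyB, 0.0945 RPM in PC9 and 147 RPM in PC15, and in HyB it too was highest in replicate 1, with 49.6, 4.33 and 3.79 RPM. Copia_3 averaged 12.5 RPM in HyB, 7.32 RPM in PC9 and 90.3 RPM in PC15. By Pearson's r Gypsy_1, the family of the element that lies between the scaffold 1 pieces, came first (r = 0.981), although it ranked 49 by rho (0.546). These libraries share depth and strain, the PC15 libraries set much of each value, and no test was made.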

How the data were processed

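mRNA, small RNA and bisulfite libraries were compared as deposited. Per the submitters' processing notes, the mRNA tools included STAR and the bisulfite tools BS-Seeker2, each listed with FastQC. The small RNA tools, the counting tool and the genome build are not given in the sources used here. Both mRNA and small RNA of TE copies were given as read counts by the authors, gene mRNA as RPKM, and CG methylation as a fraction per copy, per the file headers. Fractions were multiplied to percent. mRNA totals came from the deposited RPKM, of which 95.5% to 95.8% per library were whole reads within 0.01. Small RNA totals were the gene and TE reads.

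The copies, lists and comparisons were chosen with earlier results of these data known. Every copy was named, with genes within 1 kb and the 5 families of highest rho (log2 of RPM plus 0.1, families with a mean of at least 1 RPM in a group). Counts of all TE copies were fitted with edgeR 4.0.16 (R 4.3.3; quasi-likelihood, 6 groups, filterByExpr) on library totals, because TMM inside the TE table absorbs the unequal TE shares. SE is the log2 fold change over the root of F. Methylation was fitted with limma 3.58.1 without PC9. DESeq2 1.42.0 was an alternative. The planned mRNA test against HyB is given without p-values, because HyB mRNA helped to choose the family. The threshold was a Benjamini-Hochberg adjusted p of 0.05 over all TE copies. The fits were tested on simulated data. Intervals and limits (3 reads) cover counting error only. In mRNA, chi-square per degree of freedom was 3.77 between HyB replicates 2 and 3 and 1.56 between primordium replicates 2 and 3, and 25.7 to 515 between all other replicates of a group; these libraries were kept apart. Same-numbered mRNA libraries deviated together in N001 mycelium and HyB (correlations of 0.365, 0.295 and 0.248 over TE copies) and in fruitbody and primordium (0.557, 0.251 and 0.374), so a fit with the replicate block was run. The labels do not say what a number shares.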

Additional observations from a re-analysis of the deposited data

How the results depend on the processing

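Of 277 alternative values, 256 kept their direction and call or stayed within the spread, 14 moved, 7 lost a call and 0 reversed. The small RNA count in N001 mycelium against HyB was 0 with TMM inside the TE table and with no filter on low counts, and ranged from 0 to 1 with 1 replicate left out. Without a filter the scaffold 8 long copy had an adjusted p = 0.0790 by edgeR. Methylation counts against HyB and PC15 were 3 each when all 6 groups were fitted, because only 3 copies had a value in PC9. Over those copies mean methylation was 62.5% in N001 mycelium, 63.8% in primordium, 62.3% in fruitbody, 30.6% in HyB and 26.7% in PC15, against 48.3%, 49.8%, 48.9%, 21.02% and 20.3% over 6 copies. By Pearson's r, 1 of the 5 most similar families was shared.

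With the replicate block, counts of Copia_5 calls were 1 for small RNA (adjusted p = 0.0400 by edgeR) and 5 for each methylation comparison, and 0 between stages, so the block changed no count. The mRNA comparison with HyB is a description, because HyB mRNA helped to choose the family, and its calls are not given. The numbers were not shown to pair small RNA or bisulfite libraries. Small RNA correlations ran from 0.00925 to 0.216 over the comparisons tested for small RNA, and the lowest in N001 mycelium against PC15 was -0.00771. The lowest bisulfite correlation was -0.0747. In mRNA of primordium and mycelium, replicates 1 and 2 deviated together (0.354 and 0.392) and replicate 3 did so little (0.0977). Fruitbody and primordium methylation gave 0.668 and 0.486, with 2 pairs only.

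Over all TE copies, fitting only the compared groups gave 22 mRNA calls in primordium against mycelium, where all groups gave 12 (3 to 39 over the alternatives). Small RNA calls against HyB were 203 by DESeq2 and 184 with TMM, where edgeR gave 101. They were 144 with only these groups, 23 to 85 with 1 replicate left out and 210 without replicate 1 of every group. Without replicate 1 of every group, 41 small RNA calls appeared in primordium against mycelium and 2 in fruitbody against primordium, where all libraries gave 0. With only the compared stages, no Copia_5 copy had enough mRNA reads to test. The merging of close mRNA pairs, the leaving out of replicate 1 in every group and the omission of the PC9 value of 0 were chosen after seeing the data. Without that value, the PC9 mean was 71.9%, against 63.9% with it. Depth limits N001 and PC9 mRNA, where most copies had under 10 reads per library.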
